A study of Mus musculus with 8 samples.

Results

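P2X receptors are ATP-gated cation channels, and their 7 mouse genes, P2rx1 to P2rx7, are described here by the DNA methylation of their loci in hematopoietic stem cells. The family is 7 of the 20661 autosomal protein-coding genes of the gene table. A CpG belonged to a locus when it lay in the gene or within 5 kb of it and had at least 10 reads in at least 3 mice of each group. That rule kept 487 of the 1375 CpGs listed there for any mouse, out of 1278034 autosomal CpGs that pass the same rule. The family was singled out because a window of P2rx7 had already shown lower methylation in the knockouts of these same mice, so the genotype difference of P2rx7 is given as a description, without a p-value.

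Cells came from 4 Atg12fl/flMx1-cre mice, called cKO here, in which the autophagy gene Atg12 is deleted in cells that have expressed the interferon-inducible Mx1-Cre. The other 4 mice were controls. Their genotype label reads WT, while the series' design text gives them floxed Atg12 alleles without Cre. Mice of both groups were C57BL/6. They were injected with poly(I:C), an inducer of interferon and so of Mx1-Cre, at 4 weeks of age, and their cells were taken 2 to 3 months later. The sorted bone marrow cells of each mouse carried c-Kit, Sca-1 and CD150, lacked lineage markers, Flk2 and CD48, and were not cultured. Mx1-Cre acts in many cells besides stem cells, and the share of stem cells with the deletion is not shown by methylation calls.

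Extracellular ATP, released by stressed or dying cells, opens P2X channels, which are trimers built of the same or of different subunits. P2X7 needs more ATP than the other members, carries a long intracellular tail, and in macrophages its opening lets potassium out and activates the NLRP3 inflammasome. P2X1 acts in platelets and smooth muscle, P2X2 and P2X3 in sensory neurons, and P2X4 in microglia and macrophages, partly in lysosomes. CpG-rich gene starts are usually unmethylated whether or not the gene is active, while gene bodies are usually methylated.

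Enhanced reduced representation bisulfite sequencing reads CpG-rich restriction fragments after bisulfite has converted unmethylated cytosines, so it samples parts of each locus. The method cuts at CCGG, a palindrome, and that motif was counted in the 300 bases around each transcription start (250 before, 50 after) held by RefSeq on GRCm38.p6, which is mm10. Sequences were held for 4 members, P2rx1, P2rx4, P2rx6 and P2rx7. CCGG occurred 3 times at P2rx1, 4 times at P2rx4, 0 times at P2rx6 and at the first P2rx7 start, and 1 time at the second P2rx7 start. It occurs in 53.5% of all 31396 autosomal starts. The sequences of P2rx7, P2rx4 and P2rx1 are shown to mark which of their CpGs were measured. Whether the CCGG sites decide which CpGs could be read was not tested. All are on the + strand, written 5′ to 3′, with the measured CpGs in capitals.
P2rx7, first start, chr5:122643677-122643976: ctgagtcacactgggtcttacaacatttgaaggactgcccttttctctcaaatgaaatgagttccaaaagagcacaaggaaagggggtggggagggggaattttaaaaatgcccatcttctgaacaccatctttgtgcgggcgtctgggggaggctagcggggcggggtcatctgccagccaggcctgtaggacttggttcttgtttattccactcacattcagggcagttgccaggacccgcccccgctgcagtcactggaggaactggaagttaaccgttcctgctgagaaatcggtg
P2rx7, second start, chr5:122650133-122650432: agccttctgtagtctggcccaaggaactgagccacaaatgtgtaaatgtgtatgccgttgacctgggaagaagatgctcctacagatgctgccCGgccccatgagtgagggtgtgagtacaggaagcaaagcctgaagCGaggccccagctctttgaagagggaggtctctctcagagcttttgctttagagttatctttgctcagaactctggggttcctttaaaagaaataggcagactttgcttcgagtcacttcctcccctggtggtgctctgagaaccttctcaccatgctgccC
P2rx4, chr5:122707294-122707593: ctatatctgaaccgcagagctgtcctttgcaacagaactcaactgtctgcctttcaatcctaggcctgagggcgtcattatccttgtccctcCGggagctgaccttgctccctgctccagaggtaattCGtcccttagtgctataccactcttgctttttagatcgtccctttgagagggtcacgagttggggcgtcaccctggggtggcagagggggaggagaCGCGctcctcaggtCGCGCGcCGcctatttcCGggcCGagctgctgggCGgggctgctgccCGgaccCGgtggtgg
P2rx1, chr11:72998895-72999194: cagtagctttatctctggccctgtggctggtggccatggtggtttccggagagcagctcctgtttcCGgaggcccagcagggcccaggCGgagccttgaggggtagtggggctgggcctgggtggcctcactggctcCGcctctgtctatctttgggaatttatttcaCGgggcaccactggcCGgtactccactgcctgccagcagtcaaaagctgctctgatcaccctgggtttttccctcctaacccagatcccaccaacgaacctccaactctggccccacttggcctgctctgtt
The first P2rx7 start holds 8 CpGs, none of them measured. The second holds 4 CpGs, 2 measured, and its last base is the C of another measured CpG. P2rx4 had 13 of 18 CpGs measured and P2rx1 had 5 of 7. The start of P2rx6 holds 3 CpGs, with 0 measured.

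The starts that could be read were unmethylated at P2rx1 and P2rx4, and variable at P2rx7. The P2rx4 start averaged 0.428% ± 0.753 in cKO and 0.106% ± 0.121 in controls (SD, n = 4 each). The P2rx1 start averaged 0.745% ± 1.09 in cKO and 0.0432% ± 0.0865 in controls (SD, n = 4 each). The second P2rx7 start, averaged over those of its 3 CpGs that were measured in the mouse, stood at 27.2%, 0%, 50% and 48.5% in cKO 25, 28, 45 and 46, against 38.5%, 0%, 22.4% and 12.7% in control 1, 34, 36 and 37. The value of cKO 45 lacks the CpG 122650432 and that of control 1 is this CpG alone, so those means do not cover the same CpGs as the others. The groups overlapped, and each CpG rests on few reads, between 12 and 41 per mouse. For P2rx2, P2rx3 and P2rx5 no start was held, and the bases within 1000 bp of the gene end with more CpGs were used. The strand of these genes was not given, so that end need not be where transcription starts. At that end P2rx2 averaged 9.16% ± 3.35 in cKO and 9.55% ± 1.15 in controls over 43 CpGs. P2rx3 averaged 0.0489% ± 0.0330 in cKO and 0.339% ± 0.213 in controls over 17 CpGs. All 17 lie outside P2rx3, in the adjoining gene Ssrp1, so they give no level for P2rx3 itself. P2rx5 had 2 CpGs measured at the end used, at 96.4% ± 7.18 in cKO and 91.0% ± 7.99 in controls (SD, n = 4 each). That P2rx5 end was chosen by 8 listed CpGs against 3 at the other end.

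The libraries held 2038266 to 3366162 listed cytosines in cKO and 2333324 to 2754436 in controls, with a median of 212 to 293 reads in cKO and 233 to 242 reads in controls at the CpGs shared by all mice. P2X loci were read at a median of 104.5 (P2rx7) to 349 reads (P2rx1) per CpG and mouse. Libraries differed in how deeply they read methylated DNA: the coverage of always methylated CpGs was 0.341 to 0.553 times that of always unmethylated ones in cKO, lowest in cKO 25, and 0.260 to 0.740 times in controls, lowest in control 34. Cytosines on Y made up 7.90 to 9.01 per 10000 of those listed in cKO and 1.15 to 1.83 in controls, and those on X 1.83 to 1.93% in cKO and 2.42 to 2.54% in controls. Genotype and Y content thus coincide in these mice, and their parts in a difference cannot be told apart. The sorting gate could be checked at few genes, since methylation does not give expression: the gene ends of Kit and Flt3 averaged under 1% in both groups, and that of Cd48, 3 CpGs, 27.1% ± 7.33 in cKO and 15.4% ± 5.37 in controls (SD, n = 4 each). Their part in the P2X values was not tested. Just inside the coverage rule, 85 CpGs with a missing mouse had a median level of 87.0%, and just outside it 31 CpGs, 1 mouse short, had a median level of 88.5%.

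P2rx7 was the member with the highest level over its measured CpGs. P2rx7 lies at chr5:122643927-122692336 and had 84 CpGs kept of 307 listed. Of these, 11 (13.1%) were under 10% methylated, 26 (31.0%) between 10 and 90%, and 47 (56.0%) over 90%. Over all 487 CpGs of the family the shares were 62.01%, 15.0% and 23.0%, close to the 58.1%, 14.4% and 27.5% of all autosomal CpGs under the same rule. P2rx7 shares its CpGs with no other gene, whereas 227 of the 487 lie inside a neighbouring gene. Averaged over the 58 CpGs measured in all mice, the P2rx7 locus stood at 62.6%, 68.6%, 64.7% and 64.3% in cKO 25, 28, 45 and 46, against 71.0%, 68.5%, 71.1% and 72.7% in control 1, 34, 36 and 37. The means were 65.1% ± 2.54 in cKO and 70.8% ± 1.73 in controls (SD, n = 4 each), and the difference was -5.76 points of methylation percentage. The groups overlapped by a narrow margin, cKO 28 lying just above control 34. Over the 54 CpGs inside the gene they did not overlap, at 62.6% ± 2.62 in cKO and 68.8% ± 1.55 in controls. With reads summed over the locus in place of equal weight per CpG, the difference was -10.9 points.

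**Figure D1:**
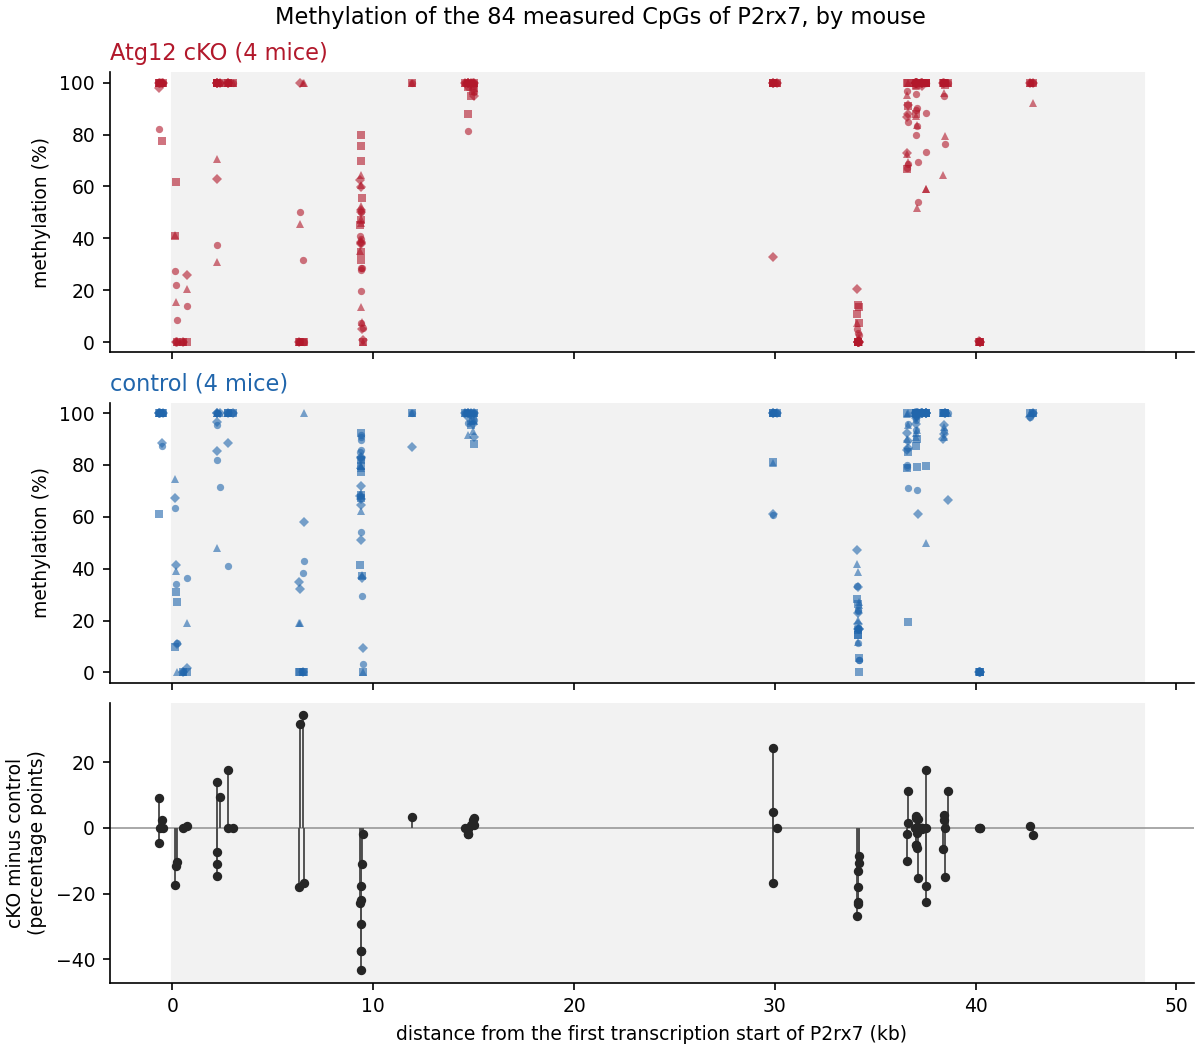
Methylation (%) of each measured CpG of P2rx7 against its distance (kb) from the first transcription start, with 1 point per mouse, cKO in the upper panel and control in the middle one, and the difference of the group means (percentage points) below. The grey band is the gene. Most CpGs lie near 100% in both groups, and the longest downward stems stand near 9 and 34 kb.

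Most P2rx7 CpGs whose cKO and control mice did not overlap lay in 2 short stretches inside the gene. In a 1 kb window, 7 CpGs were measured at chr5:122678036-122678139, which is 34109 to 34212 bp past the first start. With 1560 to 3405 reads per mouse, its level was 1.76%, 7.77%, 2.57% and 1.12% in cKO 25, 28, 45 and 46, against 15.0%, 13.7%, 24.4% and 26.2% in control 1, 34, 36 and 37. All 4 cKO mice lay below all 4 controls. The means were 3.30% ± 3.03 in cKO and 19.8% ± 6.39 in controls (SD, n = 4 each), a difference of -16.5 points. This is the window by which the gene was chosen, so the gap is a description. Without the libraries cKO 25 and control 34 together, the difference was -18.0 points.

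All 7 CpGs of the stretch had the lower mean in cKO. At position 122678036 the levels were 4.85%, 10.95%, 20.3% and 7.40% in cKO 25, 28, 45 and 46, against 33.3%, 28.4%, 47.3% and 41.8% in control 1, 34, 36 and 37. At 122678056 they were 0.832%, 0%, 0% and 0% in cKO, against 23.6%, 26.6%, 22.9% and 20.1% in controls. The 0 values there rest on 211, 378 and 375 reads in cKO 28, 45 and 46, which allow levels of up to 1.42%, 0.794% and 0.8%. Such limits cover counting error alone, because the reads carry no molecular identifiers and several can stem from a single molecule. At 122678077 the means were 0.853% ± 1.71 in cKO and 13.98% ± 3.28 in controls, at 122678086 0.201% ± 0.402 in cKO and 18.1% ± 4.16 in controls, and at 122678090 3.58% ± 7.16 in cKO and 26.2% ± 11.5 in controls (SD, n = 4 each). The groups were apart at these 5 CpGs. At the last CpGs of the stretch they overlapped: 122678105 averaged 3.34% ± 6.68 in cKO and 11.9% ± 11.7 in controls, and 122678139 averaged 2.85% ± 3.08 in cKO and 13.6% ± 10.5 in controls. cKO 28 carried nearly all of the cKO methylation at 122678090 and 122678105, with 14.3% and 13.4% against 0% in the other cKO mice.

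The strands of the stretch were read separately as well. On the forward strand the levels were 2.40%, 2.69%, 5.07% and 1.67% in cKO 25, 28, 45 and 46, against 23.1%, 23.4%, 26.4% and 22.6% in control 1, 34, 36 and 37, with no overlap. On the reverse strand they were 0.852%, 11.6%, 0% and 0.552% in cKO, against 8.81%, 4.47%, 22.2% and 30.6% in controls. There cKO 28 lay above control 1 and control 34, so the groups overlapped.

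The next measured windows on either side were highly methylated in both groups. The nearest before it, with 3 CpGs in chr5:122673001-122674000, averaged 94.4% ± 11.3 in cKO and 90.3% ± 3.85 in controls. The nearest after it, chr5:122680001-122681000 with 10 CpGs, averaged 90.6% ± 2.81 in cKO and 93.3% ± 3.04 in controls (SD, n = 4 each). Their groups overlapped, and the differences were 4.04 and -2.66 points. Further on, the 3 CpGs of chr5:122684001-122685000 were unmethylated, with means of 0.0417% ± 0.0482 in cKO and 0.0864% ± 0.0700 in controls.

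A stretch in another P2rx7 window, chr5:122653287-122653401, was picked out after its values had been seen. Its 9 CpGs lie 9360 to 9474 bp past the first start and had 812 to 2586 reads per mouse. The level was 26.6%, 49.8%, 42.6% and 34.6% in cKO 25, 28, 45 and 46, against 58.2%, 57.4%, 58.0% and 58.0% in control 1, 34, 36 and 37. All cKO mice lay below all controls, and with reads summed the controls lay within 1 point of each other. The means were 38.4% ± 10.05 in cKO and 57.9% ± 0.362 in controls (SD, n = 4 each), a difference of -19.5 points. With equal weight per CpG the controls lay further apart, at 68.0%, 60.6%, 59.4% and 61.7% in control 1, 34, 36 and 37. The means were then 37.7% ± 8.73 in cKO and 62.4% ± 3.83 in controls (SD, n = 4 each), a difference of -24.7 points, still without overlap. All 9 CpGs had the lower mean in cKO, and at 3 of them (122653311, 122653321 and 122653332) the groups did not overlap. The largest CpG difference was at 122653311, with 28.4%, 47.1%, 38.5% and 47.3% in cKO 25, 28, 45 and 46, against 90.7%, 81.7%, 82.5% and 79.5% in control 1, 34, 36 and 37. Over the last CpGs of the stretch the level dropped in both groups, and at 122653401 it was 1.49% ± 2.57 in cKO and 3.19% ± 4.47 in controls.

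Over this stretch as a whole, the reads of the 2 strands gave different levels. Whether both strands were read at the same CpGs was not tested, so this is no comparison of strands at a CpG. The forward strand averaged 44.4% ± 10.7 in cKO and 73.6% ± 6.30 in controls, without overlap. The reverse strand averaged 12.1% ± 10.5 in cKO and 24.9% ± 9.17 in controls (SD, n = 4 each), with overlap. They were not equally deep, with 515 to 2268 reads per mouse on the forward strand and 189 to 572 on the reverse strand.

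**Figure D2:**
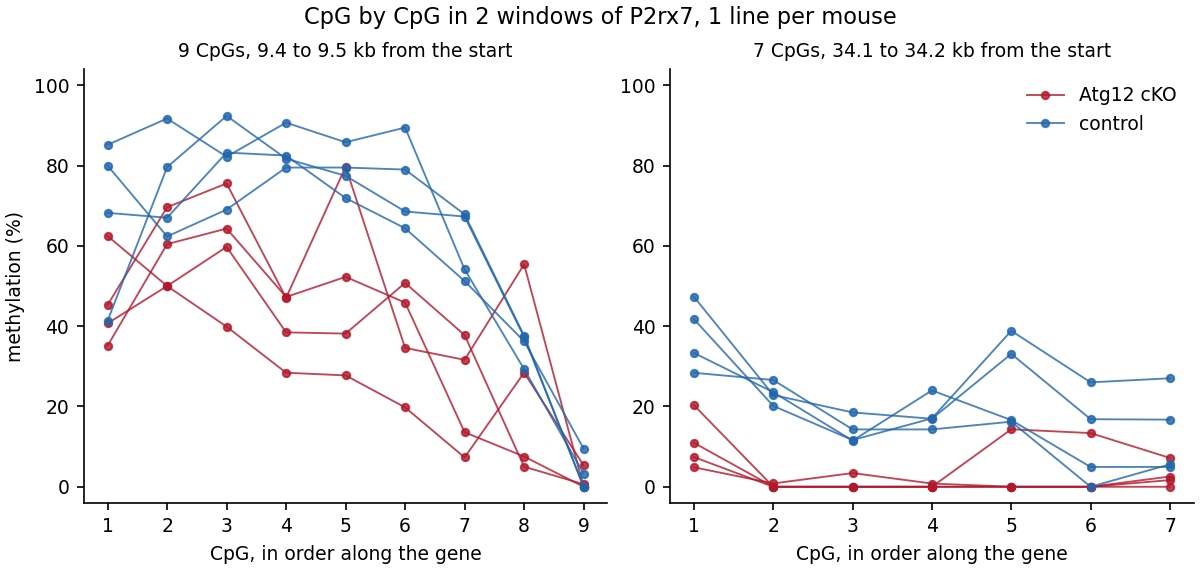
Methylation (%) of consecutive CpGs in 2 stretches of P2rx7, with 1 line per mouse, cKO in red and control in blue. In the right panel the cKO lines run at or near 0% from the second CpG on, apart from cKO 28, and the control lines run above all cKO lines up to the fifth CpG, while at the sixth control 34 is at 0% as well; in the left panel both groups fall towards 0% at the ninth CpG.

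A window near the start of the gene, also picked out after its values had been seen, holds 4 CpGs at chr5:122644097-122644654, which is 170 to 727 bp past the first start. Its level was 11.9%, 22.9%, 5.41% and 10.4% in cKO 25, 28, 45 and 46, against 25.8%, 21.1%, 25.6% and 24.4% in control 1, 34, 36 and 37. The groups overlapped, cKO 28 lying above control 34, with means of 12.6% ± 7.37 in cKO and 24.2% ± 2.18 in controls (SD, n = 4 each). The difference was -11.5 points with reads summed and -5.33 points with equal weight per CpG. With reads summed, cKO 28 was the highest cKO mouse and control 34 the lowest control in these 3 windows.

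**Figure D3:**
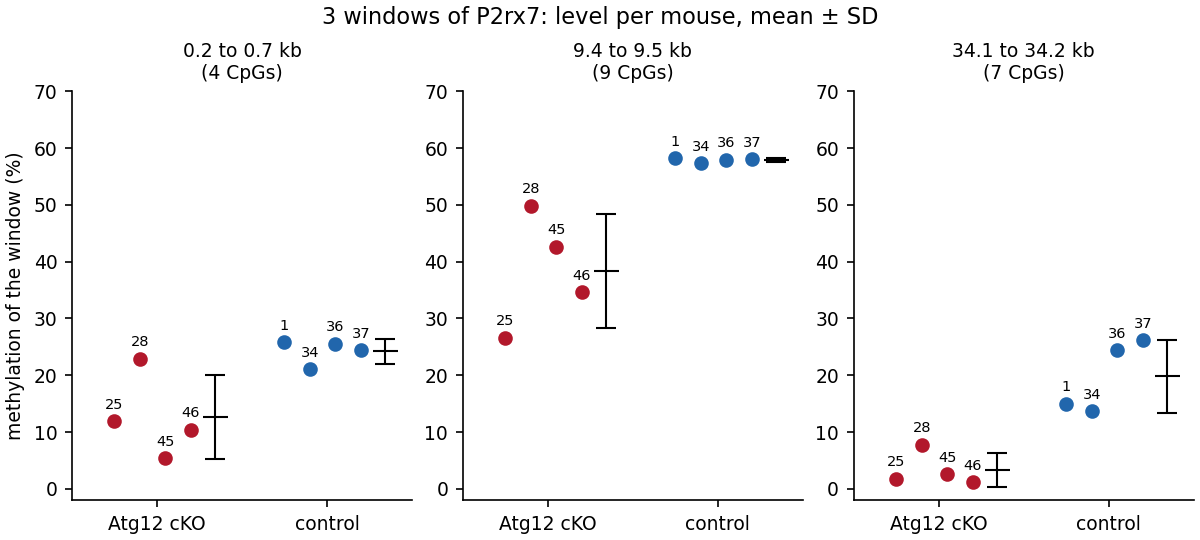
Methylation (%) of 3 windows of P2rx7 in each mouse, cKO left of control, titled by their CpGs' distance from the first transcription start. Numbers name the mice, and bars give the mean ± SD. Groups are apart in the middle and right panels and touch in the left one, where cKO 28 (22.9%) lies above control 34 (21.1%).

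Across P2rx7, 9 of the 84 CpGs had all cKO values below all control values and 0 had them above. Of these 9, 5 lie in the stretch near 34 kb, 3 in that near 9 kb, and the last, 122682384, averaged 84.9% ± 12.4 in cKO (n = 3) and 100% ± 0 in controls (n = 4). All 9 are among the 46 P2rx7 CpGs with a mean level of 5 to 95%, the range that was tested. Over all 311826 tested autosomal CpGs the share with cKO below was 1.54% and with cKO above 1.58%. Of the 46 P2rx7 CpGs, 31 had the lower mean in cKO, with a median difference of -11.01 points. Among all tested CpGs 53.7% had the lower mean in cKO and their median was -0.918. Nothing is read from these P2rx7 counts or from this median, since the gene was chosen by the same contrast.

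The tests are read at the other 6 genes, since the family was chosen by a window of P2rx7. Earlier results of these data were known at that choice. P2rx3 had no window, CpG or locus in the tested range of levels. Of the 1 kb windows of the 7 loci, 11 were in the tested range of levels, 2 in P2rx2, 4 in P2rx4 and 5 in P2rx7. Of the 6 in P2rx2 and P2rx4, 0 passed an adjusted p of 0.05 in the moderated quasi-binomial test, where 0.0% of all 39828 windows passed, and 0 passed by edgeR or by limma. Without control 34, 24 of all windows passed, 0 of them in P2rx2 or P2rx4. At an unadjusted p under 0.05, 1 of the 6 was higher in cKO, against 2.09% of all windows, and 0 were lower, against 4.41%. Of the 6, 0 had all cKO below all controls, against 2.0% of all windows, and 0 had all cKO above, against 1.48%. The mean was lower in cKO in 4 of the 6, 2 in each gene, against 52.7% of all windows. P2rx1, P2rx3, P2rx5 and P2rx6 had 12 windows between them, none in the tested range, each with a mean level under 5% or over 95%.

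**Figure D4:**
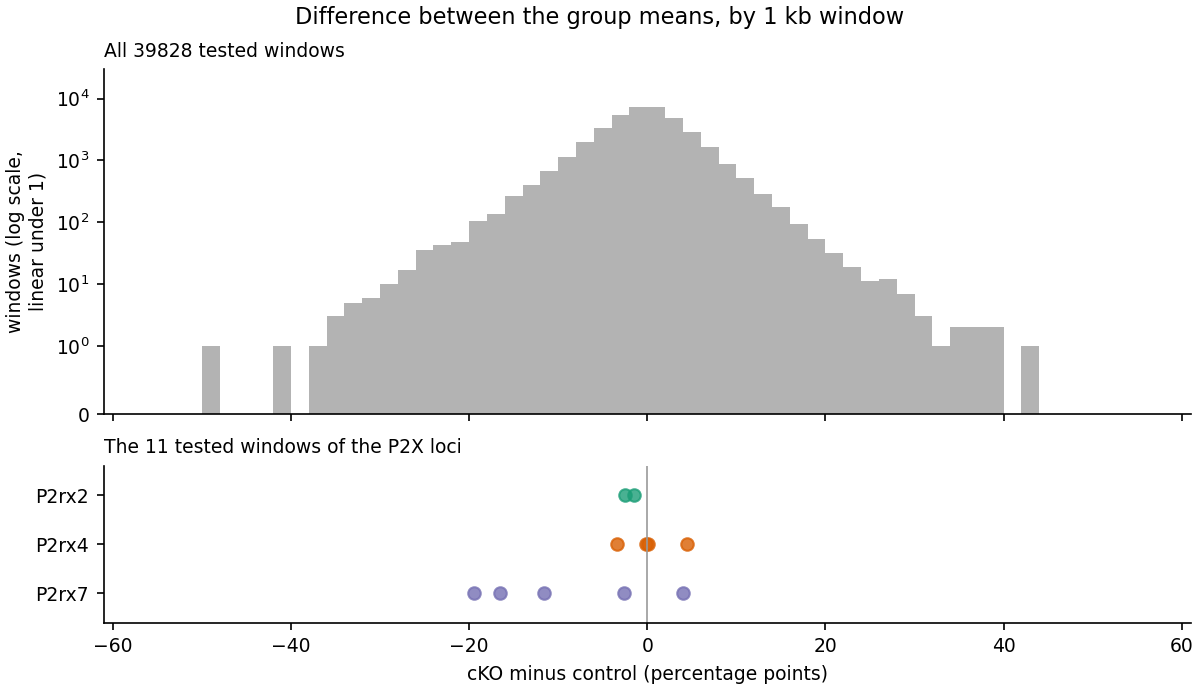
Difference between the group means (cKO minus control, percentage points) for 1 kb windows. The upper panel counts all 39828 tested windows on a log scale and the lower panel gives the 11 windows of P2rx2, P2rx4 and P2rx7, 1 point each; the P2rx2 and P2rx4 points lie between -3.39 and 4.44, and 3 of 5 P2rx7 points lie at -11.5 or below.

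P2rx4, the lysosomal and microglial ATP channel, had an unmethylated start and a methylated 3′ part that overlaps Camkk2. It lies at chr5:122707518-122729739 and kept 98 of 260 CpGs, 51 of them inside Camkk2. The 42 consecutive CpGs from 122707386 to 122707939 had a mean level of 0.138%. The locus averaged 44.96% ± 0.672 in cKO and 45.2% ± 0.656 in controls over 79 CpGs (SD, n = 4 each), with a difference of -0.233 points and an adjusted p of 0.995 by limma. The sign of that difference turned when cKO 25 or control 37 was left out. The window with the smallest p was chr5:122734001-122735000, in Camkk2 and past the end of P2rx4. Its 6 CpGs stood at 3.51%, 8.49%, 13.98% and 8.08% in cKO 25, 28, 45 and 46, against 4.53%, 1.96%, 3.71% and 6.13% in control 1, 34, 36 and 37. The groups overlapped, the difference was 4.44 points (2.61 without cKO 45), and the adjusted p by the quasi-binomial test was 0.720. The single CpG with the smallest p, 122725885, had 0%, 0% and 0% in cKO 25, 45 and 46, against 40.0%, 64.3%, 54.5% and 87.5% in control 1, 34, 36 and 37, with cKO 28 not measured. It rests on 11 to 35 reads per mouse, so the 0 values allow up to 8.57%, 10.3% and 14.3%, and the adjusted p was 0.740.

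P2rx2, a subunit of sensory neurons, was lowly methylated at most of its measured CpGs. It lies at chr5:110339812-110343320, the shortest of the 7 genes, and kept 50 of 101 CpGs. Of the 49 inside the gene, 30 were under 10% and 4 over 90%. The 11 CpGs with a missing mouse, which the locus mean leaves out, had a median level of 44.9%. The locus averaged 12.6% ± 1.52 in cKO and 13.5% ± 0.357 in controls over 39 CpGs (SD, n = 4 each), with an adjusted p of 0.994 by limma. Its window chr5:110342001-110343000 holds 36 CpGs with 8484 to 13948 reads per mouse. The level was 4.06%, 4.20%, 5.81% and 5.76% in cKO 25, 28, 45 and 46, against 5.54%, 6.43%, 5.99% and 7.78% in control 1, 34, 36 and 37. The groups overlapped, the difference was -1.48 points, and the adjusted p by the quasi-binomial test was 0.773. The CpG with the smallest p, 110342474, averaged 33.6% ± 29.9 in cKO (n = 3) and 6.63% ± 8.59 in controls (n = 4), with an adjusted p of 0.763 by the same test. That difference, 27 points, was 43.7 without cKO 25 and 15.2 without cKO 46.

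P2rx5 and P2rx1 lie near each other on chromosome 11 and most of their measured CpGs were unmethylated. P2rx5, at chr11:73155389-73172687, kept 127 of 231 CpGs, 108 of them under 10%, and 35 lie in each of the neighbours Emc6 and Tax1bp3. Inside P2rx5, the 37 consecutive CpGs from 73160216 to 73160696 had a mean level of 0.446%, and 3 stretches further along were over 90%. The locus averaged 10.9% ± 0.641 in cKO and 10.8% ± 0.368 in controls over 116 CpGs (SD, n = 4 each), with an adjusted p of 0.998 by limma. The sign of this difference turned when cKO 28 or control 34 was left out. Its CpG with the smallest p, 73166346, averaged 76.7% ± 22.4 in cKO (n = 3) and 98.4% ± 2.52 in controls (n = 4), with an adjusted p of 0.768 by the quasi-binomial test. The difference of -21.6 points was -10.9 without cKO 25 and -33.2 without cKO 46.

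P2rx1, the platelet channel, at chr11:72999056-73015200, kept 79 of 185 CpGs, of which 67 lie in Camkk1, at a mean level of 0.373%, and 5 inside P2rx1. The locus averaged 8.14% ± 0.354 in cKO and 7.82% ± 0.0724 in controls over 76 CpGs (SD, n = 4 each), with an adjusted p of 0.994 by limma. Its CpG with the smallest p, 72994745, averaged 96.8% ± 3.78 in cKO and 83.7% ± 13.4 in controls (SD, n = 4 each), with an adjusted p of 0.812 by the quasi-binomial test.

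P2rx6 and P2rx3 had the fewest measured CpGs, and nearly all of these lie outside the genes. P2rx6, whose subunit rarely forms channels by itself, is at chr16:17561867-17572015 and kept 24 of 130 CpGs, 2 of them inside the gene. Its locus averaged 6.38% ± 1.09 in cKO and 7.18% ± 1.55 in controls over 19 CpGs (SD, n = 4 each), with an adjusted p of 0.994 by limma. At 17560990, in the neighbour Lrrc74b, the levels were 0%, 11.6% and 46.4% in cKO 25, 28 and 46, against 75.8%, 51.6% and 55.0% in control 1, 34 and 36, on 20 to 62 reads per mouse. The 0 value allows up to 15.0%, the groups did not overlap, and the adjusted p was 0.776 by the quasi-binomial test. P2rx3, at chr2:84996549-85037108, kept 25 of 161 CpGs, 23 of them in Ssrp1, the adjoining gene. The 13 CpGs measured in all mice all lie in Ssrp1. Over them the P2rx3 locus averaged 0.0617% ± 0.0443 in cKO and 0.419% ± 0.269 in controls (SD, n = 4 each), below the levels that were tested. That mean leaves out 8 CpGs over 90%, each with a missing mouse. Of these, 2 lie inside P2rx3 and 6 form a stretch in Ssrp1 with a mean level of 97.6%.

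**Figure D5:**
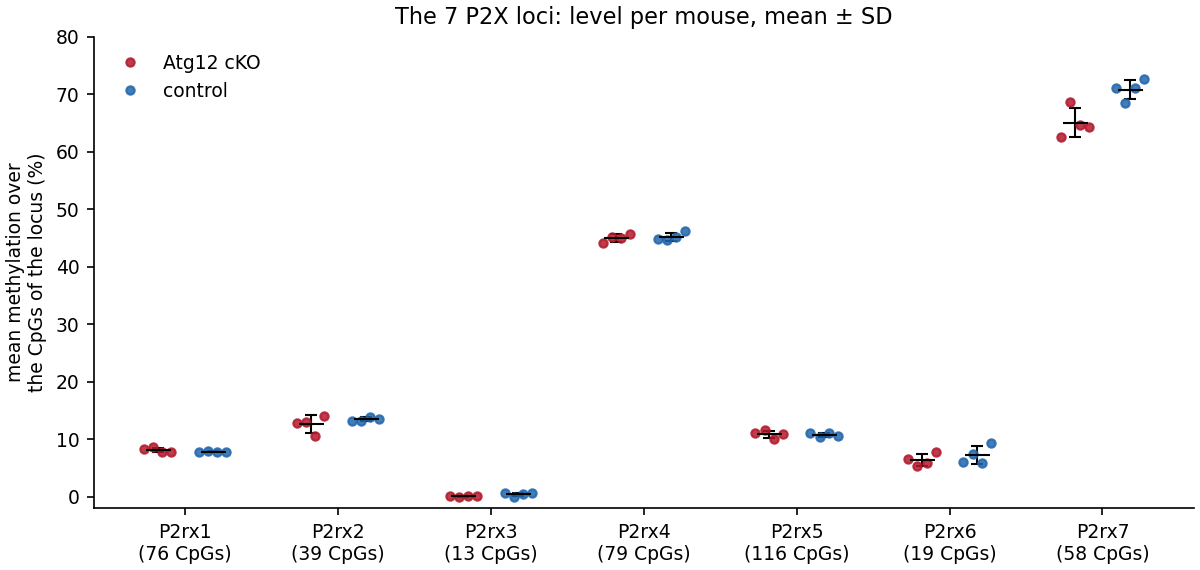
Mean methylation (%) per mouse over the CpGs of each P2X locus that were measured in all mice, cKO left of control, with the mean ± SD beside the points. P2rx7 lies highest, at 62.6 to 68.6% in cKO and 68.5 to 72.7% in controls, and P2rx3 lowest, under 1%.

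In order of level over the CpGs measured in all mice, the loci were P2rx7, P2rx4, P2rx2, P2rx5, P2rx1, P2rx6 and P2rx3. Neighbours in this order whose mice overlapped were P2rx2 and P2rx5, in cKO but not in controls, and P2rx1 and P2rx6, in controls but not in cKO. The order holds for the fragments that were sequenced, and the loci differ in how many of their measured CpGs lie in neighbouring genes. It also leaves out the CpGs with a missing mouse, among them the 8 of P2rx3 over 90%. Of the 5 loci tested besides P2rx7, 0 passed the limma test at an adjusted p of 0.05, where 0.0% of 12809 loci passed. At an unadjusted p under 0.05 by the same test there were 0 of the 5, against 559 of the 12809 loci. None of the 5 had all cKO mice below or above all controls, against 1.62% below and 1.14% above among all loci.

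At single CpGs, 75 of the 403 kept in the 6 genes other than P2rx7 were in the tested range of levels. Of these, 0 passed the quasi-binomial test, where 0.000321% of all 311826 tested CpGs passed, which is 1 CpG, and none with any of the 8 mice left out. At an unadjusted p under 0.05 there were 4 of the 75, against 20462 of the 311826 tested CpGs. By edgeR and by limma 0 of the 75 passed. Among the 75, 2 had all cKO below all controls and 1 had all above, with a median difference of -0.215 points. Those shares are near the 1.54% and 1.58% of all tested CpGs.

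The wider purinergic pathway was read at 31 further genes, by the same locus measure. Of these 23 were measured, 17 were in the tested range and 0 passed the limma test, with 13 lower and 4 higher means in cKO and a median difference of -0.425 points, where 52.3% of all loci had the lower mean and the median over all loci was -0.0335. The ATP release channels were measured for 4 of 4 genes. Panx3 averaged 12.3% ± 0.533 in cKO and 13.1% ± 0.232 in controls, and Panx2 averaged 11.1% ± 1.07 in cKO and 14.2% ± 2.82 in controls (SD, n = 4 each; adjusted p of 0.994 for each by limma). Of 6 P2Y receptors, which couple to G proteins, 4 were measured, and P2ry12, known from platelets and microglia, averaged 65.1% ± 4.06 in cKO and 61.4% ± 1.95 in controls. Of the 10 genes listed for the inflammasome, 5 were measured, and Nek7, which binds NLRP3, averaged 15.5% ± 1.59 in cKO and 14.6% ± 0.475 in controls (SD, n = 4 each). For P2ry12 and for Nek7 the adjusted p was 0.994 by limma. Nlrp3 itself averaged 89.4% ± 2.30 in cKO and 91.6% ± 1.51 in controls, with the groups overlapping and an adjusted p of 0.994 by the same test. With reads summed over the locus, the Nek7 difference had the other sign. Adenosine receptors were measured for 4 of 4 genes and ectonucleotidases, which break down ATP outside the cell, for 6 of 7.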

How the data were processed

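The deposited tables list, for each of 8 mice, cytosines of CpGs with a coverage, a count of reads made by the authors, and the percent of those reads showing C or T, per the file headers; no cytosine has under 10 reads. Per the submitters' processing notes, CASAVA 1.8.2 and Bismark were used with mm10; for filters and duplicate handling the sources used here give nothing. Methylated and unmethylated reads were recovered by rounding, and strands were added. The family, the windows and the gene lists were chosen with earlier results of these data known. For each member, the tested window and CpG with the smallest p are named; for the pathway, the 2 loci of smallest p on either side; Nlrp3 and other windows and CpGs of P2rx7 were named after their values were seen.

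Tests covered chromosomes 1 to 19, levels of 5 to 95% and CpGs under each mouse's 99.9th percentile of coverage. Windows of 1 kb (at least 3 CpGs) and CpGs were tested by a quasi-binomial model with overdispersion moderated by limma 3.58.1 in R 4.3.3, and loci (gene with 5 kb on either side, each CpG with equal weight) by limma, with Benjamini-Hochberg adjustment over all features. edgeR 4.0.16 was an alternative. The models were tested on simulated data. Depth gives precision for counting error only, since each mouse is the replicate. P2rx7 stayed in the fits, whose p-values are adjusted over all features, but its values are given without a p. Gene positions came from RefSeq, GRCm38.p6.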

Additional observations from a re-analysis of the deposited data

Results flagged for a closer look

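Of 31 groups of 4 mice examined, 1 held a mouse far from the others by Dixon's ratio, where chance gives about 1 in 20. At CpG 122678056 of P2rx7, cKO 25 had 0.832% methylation, from 4 of 481 reads, while the other cKO mice had 0%. Because those 3 mice tie at 0%, any value above 0% in the fourth would have given the same ratio. The 4 controls lay between 20.1% and 26.6%.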

How the results depend on the processing

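No paired analysis was possible because the mouse numbers of the groups are not shared. Over 21 named values and 290 alternatives, 280 kept their direction and their side of the threshold, or moved by less than 1 SD where no test was made. For P2rx7, 0 of 76 alternatives turned the direction: leaving out each mouse gave -18.6 to -14.4 points for the window near 34 kb and -23.3 to -15.5 for that near 9 kb. The P2rx7 values were picked by the same contrast in the same mice, so a kept direction is no independent support. These 76 are among the 290 alternatives. The window near the first start moved to -5.33 with equal weight per CpG, an alternative added after seeing the data, and the locus to -10.9 with summed reads. Windows called over the genome numbered 0, and 0 to 24 when 1 mouse was left out: 24 without control 34 (23 lower in cKO), 2 without cKO 45 and 1 without cKO 25. Without both control 34 and cKO 25, 3 were called. P2X windows called ranged from 0 to 1 in the same fits; the 1, without control 34, is the P2rx7 window by which the family was chosen and so is no independent support. CpGs called over the genome, 1 with all 8 mice, became 0 in each fit without a mouse, without control 34 and cKO 25 together, with no filter on the level, with edgeR (8354 at an unadjusted p under 0.05) and with limma (13767), 2 at a minimum of 20 reads and 23 with no upper limit on coverage. Loci called ranged from 0 to 1, the 1 without control 1. Directions of locus differences turned for P2rx4 (-0.45 to 0.0846 with 1 mouse left out), at 0.0735 (without cKO 25), 0.0846 (without control 37) and 0.350 (20 reads), for P2rx5 (-0.117 to 0.393), at -0.117 (without cKO 28), -0.0339 (without control 34), -0.101 (without both control 34 and cKO 25) and -1.69 (summed reads), and for Nek7, at -0.649 (summed reads); the cause was not tested. Single CpGs on few reads, such as 122725885 in P2rx4 with 11 to 35 per mouse, allow little precision.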
